A study of Mus musculus with 2 samples.

Results

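The genes described here make, take up, store, export and sense cholesterol. They are 30 of the 32285 genes counted in the series and were taken by symbol from the count tables of both samples. The set was chosen with earlier results of these data known. Of the 30, 19 encode enzymes of cholesterol synthesis, with 8 in the mevalonate and isoprenoid branch, 3 from squalene to lanosterol and 8 from lanosterol to cholesterol. Another 5 control the pathway, 3 act in uptake and transport, and 3 in storage and efflux. Further genes of the pathway are not analysed here. The samples were 2 pools of lens epithelium (replicate 1 and replicate 2), each from 4 to 8 untreated wild-type C57BL/6N pups at postnatal day 2, that is before the eyes open. The lenses were freed of ciliary body and of the tunica vasculosa, the capillary net around the young lens. The capsule with its epithelium was then separated from the fiber mass and dissociated, and the cells were read by 3′ droplet RNA sequencing. Every p-value rests on these 2 pools alone. It sets a group difference against the spread left in all groups compared together, after the pool difference shared by them is removed. That spread is drawn in part from other genes. A small p-value therefore does not by itself show that the difference was even in both pools.

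Cells make cholesterol from acetyl-CoA through mevalonate and squalene, and take it up from lipoproteins through the lysosome. When sterol in the endoplasmic reticulum is low, SCAP carries SREBP proteins to the Golgi, where they are cut and released to turn on the synthesis genes. INSIG proteins hold that complex back when sterol is plentiful, and LXR receptors, which sense oxidized sterols, turn on the exporters Abca1 and Abcg1. The lens has no blood supply of its own, and the membranes of its fiber cells are known for being very rich in cholesterol. Fiber cells arise from the epithelial cells at the lens equator.

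No group labels came with the barcodes, so cells were grouped by the share of their UMIs (the tags that stand for single captured transcripts) in marker genes, and no gene of the cholesterol set is such a marker. After filtering, 18494 barcodes remained, 10658 in replicate 1 and 7836 in replicate 2. Lens epithelial cells (LECs) made up 17467 of them, or 94.4%. The 7165 resting-like LECs passed no marker threshold for the cell cycle or differentiation. The others were 3603 S phase-like, 1123 G2M-like, 708 Ccnb2 and Cenpa-positive, 2261 Early Differentiating-like and 2459 Late Differentiating-like LECs. The 148 LECs positive for both early differentiation and cell cycle markers were left out of these groups. Each group is a range of a score and not a closed type, and 3300 LECs lay within 1.5 times of the threshold for late differentiation. There were also 537 endothelial-like, 382 mural-like and 58 macrophage-like barcodes. Cldn5 and Cryaa are gating markers, so their levels follow from the gates and do not test the names. Cldn5 stood at 3106 and 3323 CPM (counts per 1000000 UMIs) in endothelial-like barcodes and at 1.60 and 1.47 CPM in LECs, and Cryaa, the main lens crystallin, at 37881 and 31991 CPM in LECs. UMIs were summed per pool and group, scaled by the TMM method, and compared with edgeR's quasi-likelihood test with the pool as a block. Levels below are TMM-scaled CPM, given for replicate 1 and then replicate 2. Fold changes are on the log2 scale, ± standard error, and pass at an adjusted p of 0.05 over all genes tested.

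The stretch in front of a gene's start is where SREBP proteins and the factor NF-Y, which works with them, are known to bind. The 250 bases before the start are shown for 4 synthesis genes and, as a contrast, for Abca1, which moved the other way in the lens groups below. They were chosen among the genes whose windows lie wholly outside the annotated gene. Sequences are from RefSeq on GRCm38.p6 and run 5′ to 3′ on the strand of the gene. Capitals mark CCAAT, the NF-Y box, read on either strand (CCAAT or ATTGG), and the sterol element TCACNCCAC.
Hmgcs1: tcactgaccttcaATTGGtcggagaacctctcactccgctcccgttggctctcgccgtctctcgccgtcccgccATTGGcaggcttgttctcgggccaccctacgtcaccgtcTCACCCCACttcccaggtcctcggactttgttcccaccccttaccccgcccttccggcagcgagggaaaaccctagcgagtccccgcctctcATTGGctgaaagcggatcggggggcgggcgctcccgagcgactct
Mvk: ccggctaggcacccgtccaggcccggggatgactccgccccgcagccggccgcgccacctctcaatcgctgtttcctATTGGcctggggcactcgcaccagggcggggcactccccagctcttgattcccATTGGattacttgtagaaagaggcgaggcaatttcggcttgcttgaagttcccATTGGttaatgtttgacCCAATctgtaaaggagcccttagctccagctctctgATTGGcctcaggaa
Mvd: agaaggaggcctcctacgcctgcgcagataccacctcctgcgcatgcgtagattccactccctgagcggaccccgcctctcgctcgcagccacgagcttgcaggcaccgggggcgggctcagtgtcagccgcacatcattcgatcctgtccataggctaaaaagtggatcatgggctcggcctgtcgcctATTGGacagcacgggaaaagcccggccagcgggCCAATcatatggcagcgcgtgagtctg
Nsdhl: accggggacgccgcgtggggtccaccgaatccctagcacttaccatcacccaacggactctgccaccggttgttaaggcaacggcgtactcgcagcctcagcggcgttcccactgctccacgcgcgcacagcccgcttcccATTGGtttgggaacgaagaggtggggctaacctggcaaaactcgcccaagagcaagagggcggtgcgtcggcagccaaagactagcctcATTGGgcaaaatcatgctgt
Abca1: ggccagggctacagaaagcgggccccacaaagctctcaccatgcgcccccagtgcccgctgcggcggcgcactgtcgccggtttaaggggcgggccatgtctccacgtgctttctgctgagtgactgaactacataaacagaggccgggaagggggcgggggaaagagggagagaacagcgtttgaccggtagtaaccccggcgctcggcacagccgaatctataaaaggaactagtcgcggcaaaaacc
Hmgcs1 encodes the cytosolic HMG-CoA synthase, and its window lies at chr13:119690101-119690350 on the plus strand. It held 3 CCAAT boxes and the set's only TCACNCCAC, which begins 137 bases before the start. Mvk, the mevalonate kinase gene (chr5:114444019-114444268, plus strand), held 5 CCAAT boxes. Mvd, the mevalonate diphosphate decarboxylase gene (chr8:122443423-122443672, minus strand), and Nsdhl, a sterol C4 demethylation enzyme (chrX:72918271-72918520, plus strand), held 2 each. Abca1 (chr4:53159896-53160145, minus strand) held neither motif. Among the synthesis genes not shown, Pmvk, Sc5d, Ggps1 and Ebp also had a window wholly outside the gene. Those windows held 1, 1, 3 and 2 CCAAT boxes. RefSeq windows were at hand for 24 of the 30 genes, 32 windows in all. No window was given for Fdps, Fdft1, Sqle, Npc1, Stard4 and Abcg1. CCAAT was present in 22 of the 32 windows (68.8%) and in 33.8% of the 32851 windows of all genes, and in 35.5% of the windows of genes tested among the LEC groups. The GC box GGGCGG, read on both strands, was in 24 of 32 (75.0%) and in 57.7% of the windows of tested genes, and the E-box CACGTG in 6 of 32 (18.8%) and 8.32%. TCACNCCAC was in 0.977% of those windows. CCAAT was not confined to genes that rose in the lens groups below. Npc2 and Srebf1, lower in Late Differentiating-like LECs, held CCAAT boxes, as did Ebp, which did not pass there. Acat2, called higher there, held neither CCAAT nor TCACNCCAC. These are matches of letters and not measured binding, and several windows of 1 gene overlap or share a promoter.

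Late Differentiating-like LECs are the cells nearest to fibers in these samples. In them 18 of the 19 synthesis enzymes were higher than in resting-like LECs and none was lower. Ebp alone missed the test (log2 0.03 ± 0.07, adjusted p = 0.725). The called increases ran from 1.14-fold for Ggps1 to 4.23-fold for Sqle, and each had the same sign in both pools. Over all 30 genes, 23 were higher and 5 lower, while 32.8% of the 13146 genes tested were called higher and 32.8% lower. The median change of the 19 enzymes was 1.47, against -0.028 for all genes tested.

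**Figure D1:**
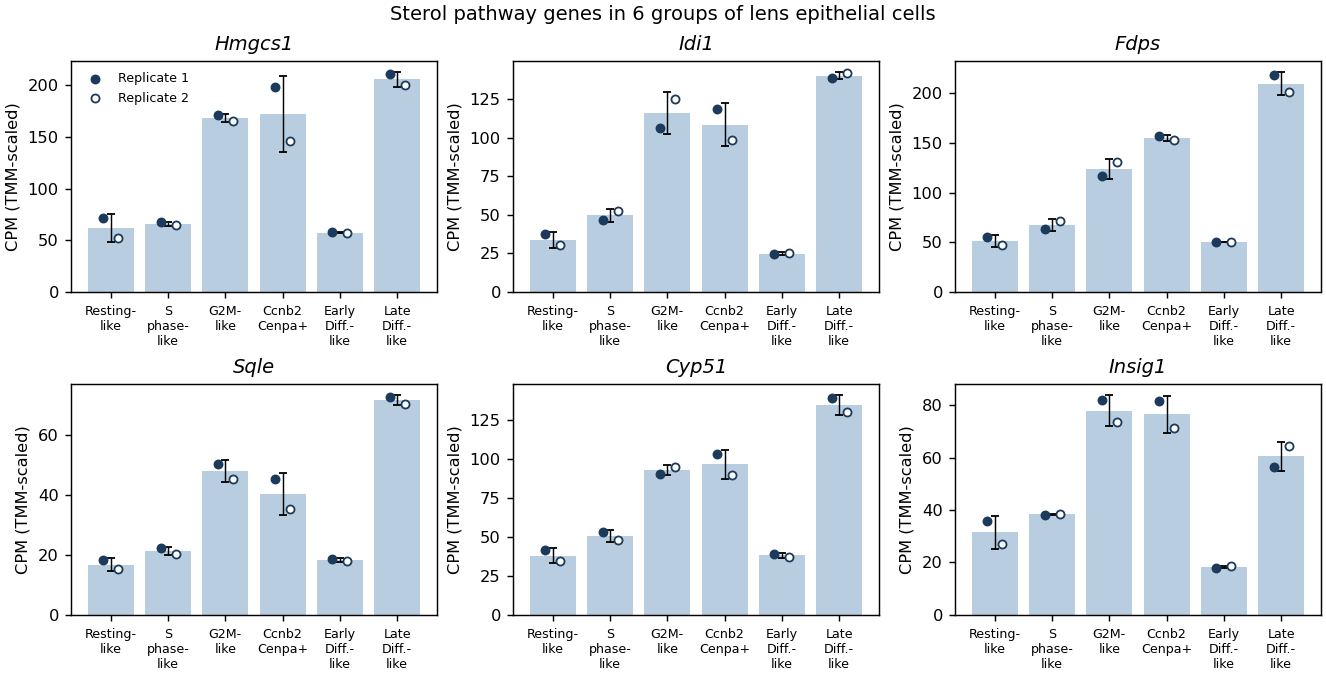
TMM-scaled CPM (vertical axis, linear from 0) of 6 genes in the 6 LEC groups (horizontal axis). Bars are means of 2 pools, error bars are SD, and points are replicate 1 (filled) and replicate 2 (open). In each panel both pools of Late Differentiating-like LECs stand above the resting-like and Early Differentiating-like LECs, and G2M-like and Ccnb2 and Cenpa-positive LECs are raised in all 6.

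At the head of the mevalonate branch, Hmgcs1 had 71.5 and 52.1 CPM in resting-like LECs and 210.9 and 200.8 CPM in Late Differentiating-like LECs (log2 1.73 ± 0.10, adjusted p = 9.33e-08). The pools of the groups lay far apart. Idi1, the isopentenyl diphosphate isomerase gene, went from 37.2 and 30.2 to 138.5 and 141.8 CPM (log2 2.04 ± 0.09, adjusted p = 1.86e-11). Fdps, which makes farnesyl diphosphate, went from 55.3 and 47.3 to 217.9 and 201.6 CPM (log2 2.02 ± 0.06, adjusted p = 1.67e-26). Between them in the pathway, the kinases and the decarboxylase rose less, Mvd by 1.20 ± 0.09, Pmvk (phosphomevalonate kinase) by 0.86 ± 0.06 and Mvk by 0.82 ± 0.09. The smallest called increases were those of Acat2 (acetoacetyl-CoA thiolase, 0.37 ± 0.09) and of Ggps1 (0.19 ± 0.07), which leads from farnesyl diphosphate to protein prenylation and away from sterols. The call of Ggps1 was lost without the replicate block (adjusted p = 0.0804) and without the low-count filter (adjusted p = 0.0609). Acat2 has a near-identical copy, Acat3, in the count tables, so that its reads could be split between them.

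All 3 enzymes between farnesyl diphosphate and lanosterol rose. Sqle, the squalene epoxidase and a slow step of the pathway, had 18.3 and 15.3 CPM in resting-like and 72.8 and 70.4 CPM in Late Differentiating-like LECs (log2 2.08 ± 0.07, adjusted p = 3.19e-36). Fdft1, the squalene synthase, went from 27.4 and 20.5 to 84.7 and 72.8 CPM (log2 1.71 ± 0.07). Lss, the lanosterol synthase whose loss is known to cause cataract, stood low throughout, at 5.05 and 4.53 CPM in resting-like and 11.5 and 15.9 CPM in Late Differentiating-like LECs (log2 1.47 ± 0.15). The pools of the groups did not overlap, but the call of Lss was lost among barcodes of 4000 to 10000 UMIs (log2 0.62, adjusted p = 0.105).

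The steps after lanosterol divided by size. Cyp51, the lanosterol demethylase, went from 41.6 and 34.5 to 139.0 and 129.8 CPM (log2 1.81 ± 0.06, adjusted p = 3.78e-38). Next in order, Msmo1 (1.59 ± 0.13) and Nsdhl (1.63 ± 0.10), which remove the C4 methyl groups, and Tm7sf2, a sterol C14 reductase (1.59 ± 0.16), rose as well. Tm7sf2 shares exon sequence on the same strand with Vps51, so its counts are uncertain. Hsd17b7, which follows Nsdhl in pathway order, rose less (0.78 ± 0.12). So did the enzymes nearest to cholesterol, Sc5d by 0.47 ± 0.10 and Dhcr7 by 0.86 ± 0.12. Ebp, the sterol isomerase between Hsd17b7 and Sc5d, had 36.9 and 37.8 CPM in resting-like and 36.4 and 40.2 CPM in Late Differentiating-like LECs. The pools of the groups overlapped.

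Of the 5 control genes, 3 were higher in Late Differentiating-like LECs, and the calls of Srebf2 and Insig2 were lost without TMM factors. Srebf2, which encodes the SREBP of sterol synthesis, went from 27.8 and 24.8 to 44.2 and 40.2 CPM (log2 0.68 ± 0.07, adjusted p = 1.07e-12). Insig1 went from 36.0 and 27.1 to 56.5 and 64.4 CPM (log2 0.91 ± 0.09) and Insig2 from 31.9 and 29.2 to 46.0 and 43.4 CPM (log2 0.55 ± 0.07). Srebf1, whose protein mainly serves fatty acid synthesis, was lower (log2 -0.38 ± 0.11, adjusted p = 0.00163), with 17.2 and 20.7 against 15.3 and 13.4 CPM. With DESeq2 the call of Srebf1 was lost (adjusted p = 0.0782). Scap had -0.06 ± 0.11 and did not pass.

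The lysosomal and export genes went the other way from the enzymes. Npc1, the lysosomal membrane protein that passes cholesterol on from endocytosed lipoprotein, was at 15.7 and 15.3 CPM in resting-like and at 7.05 and 5.72 CPM in Late Differentiating-like LECs (log2 -1.27 ± 0.13, adjusted p = 3.02e-13). Npc2, its soluble partner, was lower by less (log2 -0.38 ± 0.04). Abca1 and Abcg1 were low in all LECs, with 3.48 and 4.75 CPM and 2.01 and 4.26 CPM in resting-like LECs. In Late Differentiating-like LECs only 4 and 6 UMIs of Abca1 and 2 and 3 UMIs of Abcg1 were counted, and the fitted changes were -3.09 ± 0.35 and -3.63 ± 0.47 (adjusted p = 8.69e-12 and 3.71e-10). Stard4, a cytosolic carrier of cholesterol, was higher (log2 1.01 ± 0.14), as was Soat1, which esterifies cholesterol for storage (log2 0.71 ± 0.18), the latter at 4.14 and 3.81 against 6.11 and 7.07 CPM. Neither was called among barcodes of 4000 to 10000 UMIs, nor was Soat1 without TMM factors.

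Late Differentiating-like LECs held more RNA, with medians of 11428 and 12903 UMIs per barcode against 5443 and 6821 in resting-like LECs. Crystallins took 28.2 and 25.8% of their UMIs, against 7.9 and 7.8%. Without TMM factors, 16 of the 30 genes were higher and 8 lower, the median of all genes shifted to -0.56, and the share of higher among all called genes fell from 50.0% to 14.5%. In that fit 11.5% of all genes were called higher and 68.1% lower. On that scale Acat2 (-0.16), Ggps1 (-0.34) and Sc5d (-0.060) turned negative, while Sqle kept 1.55, Idi1 1.51, Fdps 1.49 and Cyp51 1.28. The calls of Srebf2 (0.15, adjusted p = 0.0658), Insig2 (0.018, adjusted p = 0.827), Soat1 (0.18, adjusted p = 0.35) and Hsd17b7 (0.25, adjusted p = 0.0574) were lost on it. Among barcodes of 4000 to 10000 UMIs alone, 16 of 29 genes were higher and 3 lower, against 21.3% and 20.3% of all genes, with Sqle at 1.54, Fdps at 1.31, Cyp51 at 1.21 and Hmgcs1 at 1.02. In the same band Ggps1 (-0.050) and Srebf1 (0.12) changed sign and Hsd17b7 was at 0.014. The calls of Lss (0.62, adjusted p = 0.105), Stard4 (0.34, adjusted p = 0.313), Soat1 (0.73, adjusted p = 0.106), Insig2 (0.16, adjusted p = 0.377) and Acat2 (0.31, adjusted p = 0.142) were lost there as well. The band kept 447 and 190 Late Differentiating-like barcodes, so fewer UMIs were left to detect a change. It also did not match depth, with medians of 8237 and 8276.5 UMIs in them against 5509.5 and 6857.5 in resting-like LECs. The part of depth in these differences was therefore not tested.

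In Early Differentiating-like LECs the enzymes stood close to the resting-like level. Of the synthesis enzymes 4 were higher and 3 lower than in resting-like LECs, and of all 30 genes 4 were higher and 8 lower, while 20.5% of all genes were called higher and 21.0% lower. The median change of the 19 enzymes was -0.0014, and that of all genes tested -0.0021. Without the replicate block 1 of the 30 genes was called higher in place of 4, against 12.4% of all genes. Mvk (0.28 ± 0.10), Pmvk (0.24 ± 0.06), Mvd (0.42 ± 0.11) and Tm7sf2 (0.76 ± 0.19) were higher. Insig1 fell from 36.0 and 27.1 to 18.0 and 18.5 CPM (log2 -0.81 ± 0.12, adjusted p = 8.84e-06), Hsd17b7 had -0.66 ± 0.16, Idi1 -0.46 ± 0.13 and Ebp -0.36 ± 0.08, and Stard4 had -0.55 ± 0.19. Npc2 (-0.42 ± 0.04), Abca1 (-1.49 ± 0.28) and Abcg1 (-2.11 ± 0.38) were also lower.

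Tested directly, all 19 enzymes were higher in Late than in Early Differentiating-like LECs, and of the 30 genes 24 were higher and 2 lower, against 25.2% and 23.0% of all genes. The median change of the enzymes was 1.44. Idi1 had the largest change, from 24.3 and 25.4 CPM to 138.5 and 141.8 CPM (log2 2.50 ± 0.11, adjusted p = 4.7e-11). Msmo1 followed with 2.09 ± 0.16, and Insig1 rose by 1.72 ± 0.12. Ebp was higher here as well (0.39 ± 0.09). Npc1 (-1.15 ± 0.15) and Abca1 (-1.61 ± 0.50) were lower. In all 26 of the 30 genes passed in either direction, against 48.2% of all genes. With barcodes of 4000 to 10000 UMIs alone 12 of 29 passed, all of them higher, against 19.6% of all genes in either direction. That band held only 447 and 190 Late and 1142 and 607 Early Differentiating-like barcodes.

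Enzymes were also higher in cycling groups. In G2M-like LECs 15 of the 19 enzymes were higher and none lower, with a median of 0.90, and of the 30 genes 18 were higher and 5 lower, against 16.3% and 19.9% of all genes. In Ccnb2 and Cenpa-positive LECs, which hold at least 2 UMIs of these mitotic genes but lie below the G2M threshold, 16 enzymes were higher and none lower, with a median of 0.87. Of the 30 genes 19 were higher and 4 lower there, against 7.31% and 8.46% of all genes. Both groups were compared with the same resting-like LECs, so their values stand side by side and are not independent.

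**Figure D2:**
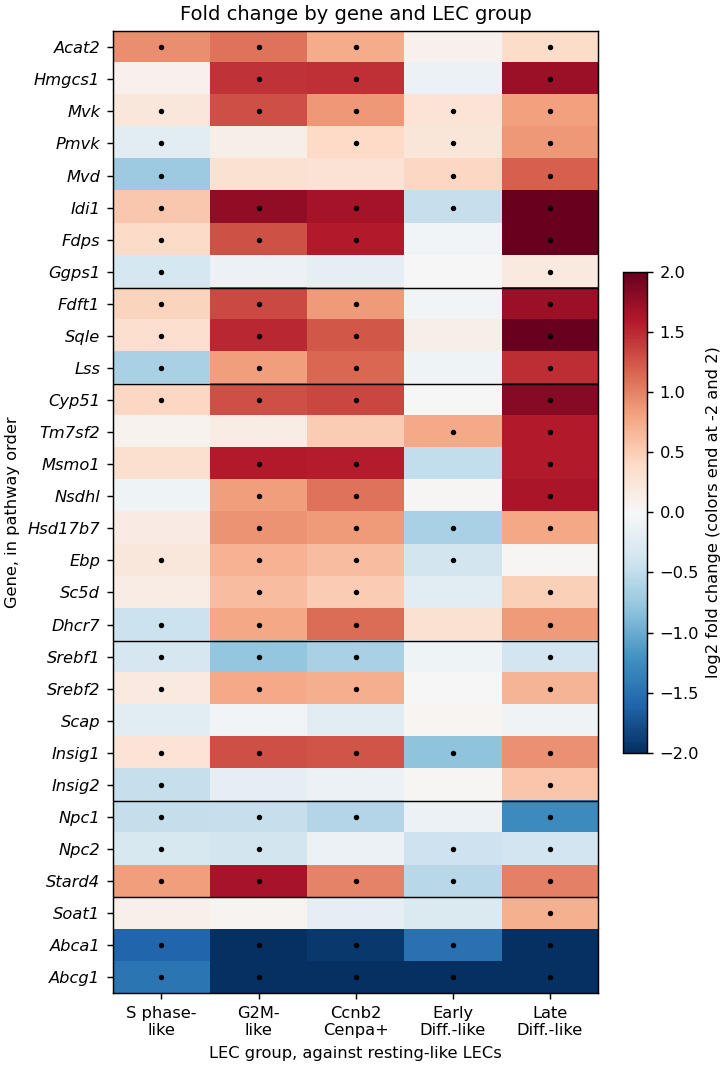
log2 fold change of each of the 30 genes (rows, in pathway order, with lines between the gene groups) in 5 LEC groups against resting-like LECs (columns). Red is higher and blue lower, colors end at -2 and 2, and a dot marks an adjusted p under 0.05 in edgeR's test. The G2M-like, Ccnb2 and Cenpa-positive and Late Differentiating-like columns are mostly red over the synthesis enzymes, the S phase-like and Early Differentiating-like columns are pale, and Abca1 and Abcg1 are blue in all 5.

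The enzymes that led in G2M-like LECs were Idi1 (106.1 and 125.3 CPM, log2 1.77 ± 0.11, adjusted p = 2.64e-09), Msmo1 (106.6 and 87.9 CPM, log2 1.59 ± 0.15), Sqle (50.4 and 45.3 CPM, a 2.83-fold increase, adjusted p = 8.92e-22) and Hmgcs1 (171.2 and 165.5 CPM, log2 1.44 ± 0.11). In each case both pools lay above both pools of resting-like LECs. Mvk (1.29 ± 0.10) and Acat2 (1.09 ± 0.10) stood higher in G2M-like than in Late Differentiating-like LECs, at 37.4 and 43.7 CPM against 30.9 and 28.1 CPM for Mvk and 40.3 and 38.0 CPM against 24.5 and 22.7 CPM for Acat2. These groups were not tested against each other. Ebp, which missed the test in Late Differentiating-like LECs, was higher here (36.9 and 37.8 to 59.6 and 62.3 CPM, log2 0.70 ± 0.08, adjusted p = 3.45e-11). The 4 enzymes that did not pass were Pmvk (0.12 ± 0.08), Mvd (0.31 ± 0.13), Ggps1 (-0.11 ± 0.09) and Tm7sf2 (0.15 ± 0.27). The values of Ccnb2 and Cenpa-positive LECs were close in size, with Idi1 at 1.66 ± 0.13, Fdps at 1.58 ± 0.09, Msmo1 at 1.56 ± 0.19 and Hmgcs1 at 1.47 ± 0.13. Pmvk passed in that group (0.39 ± 0.09), and Mvd, Ggps1 and Tm7sf2 did not.

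Among the other genes, Stard4 had its highest LEC level in the G2M-like group, 25.0 and 22.0 CPM against 8.72 and 5.91 CPM in resting-like LECs (log2 1.65 ± 0.16, adjusted p = 8.5e-13). Insig1 (1.28 ± 0.10) and Srebf2 (0.76 ± 0.09) were higher and Srebf1 lower (-0.78 ± 0.15), with Scap (-0.06 ± 0.15) and Insig2 (-0.18 ± 0.10) not passing. Npc1 (-0.47 ± 0.15) and Npc2 (-0.37 ± 0.05) were lower. No UMI of Abca1 was counted in G2M-like LECs of either pool, and 181 were counted in resting-like LECs. At a floor of 3 UMIs over the group this is at least 12.5-fold lower. The lower calls in Ccnb2 and Cenpa-positive LECs were Srebf1, Npc1, Abca1 and Abcg1. Scaled among the cell cycle groups, Abca1 had 1.03 and 1.33 CPM there and Abcg1 0.517 and 0 CPM, so these 2 rest on few UMIs. Srebf1 had 11.4 and 14.6 CPM and Npc1 9.83 and 12.4 CPM. DESeq2 or a fit without the replicate block called 0 of the 4, against 4.34% and 3.68% of all genes called lower.

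S phase-like LECs were mixed. Of the 30 genes 11 were higher and 11 lower, against 24.6% and 29.8% of all genes, and among the enzymes 8 were higher and 5 lower with a median of 0.17. The largest increases were Acat2 (19.0 and 17.5 to 33.6 and 36.1 CPM, log2 0.93 ± 0.08) and Stard4 (0.83 ± 0.13), followed by Idi1 (0.54 ± 0.10) and Fdft1 (0.45 ± 0.08). Mvd (-0.73 ± 0.11), Lss (-0.64 ± 0.19) and Dhcr7 (-0.43 ± 0.13) were lower, and Hmgcs1 did not pass (0.09 ± 0.10). Without the replicate block 7 genes were called higher in place of 11, against 18.2% of all genes. With DESeq2 7 were called lower, against 16.2%.

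Most S phase-like LECs also carried G2M markers. Of the 19 enzymes 12 stood higher in both pools in the S phase-like LECs above the G2M threshold than in those below it, 2 stood lower in both and 5 differed in sign between the pools. Hmgcs1 stood at 58.8 and 42.4 CPM in the S phase-like LECs below the G2M threshold (445 and 551 barcodes), at 76.1 and 79.0 CPM in those above it (1391 and 1216 barcodes) and at 187.3 and 179.2 CPM in G2M-like LECs, scaled within these groups. The first of these values lay below the 75.4 and 55.1 CPM of resting-like LECs in the same pool. Cyp51 ran in the same order, with 45.9 and 34.7, 60.6 and 57.8, and 99.0 and 102.9 CPM. Mvd was lower above the threshold than below it, with 18.4 and 12.6 against 8.05 and 8.71 CPM, as was Pmvk, with 50.0 and 53.3 against 45.5 and 52.0 CPM. Ggps1 went from 45.6 to 32.7 CPM in replicate 1 and from 31.6 to 33.9 CPM in replicate 2. Srebf1 ran the other way from Hmgcs1, from 17.0 and 16.7 over 14.8 and 16.9 to 11.5 and 12.4 CPM, although its first 2 values overlapped. Acat2 was raised in both S phase-like parts, at 35.0 and 33.8 and at 36.5 and 40.5 CPM, against 20.0 and 18.5 CPM in resting-like LECs. These are levels with no test.

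**Figure D3:**
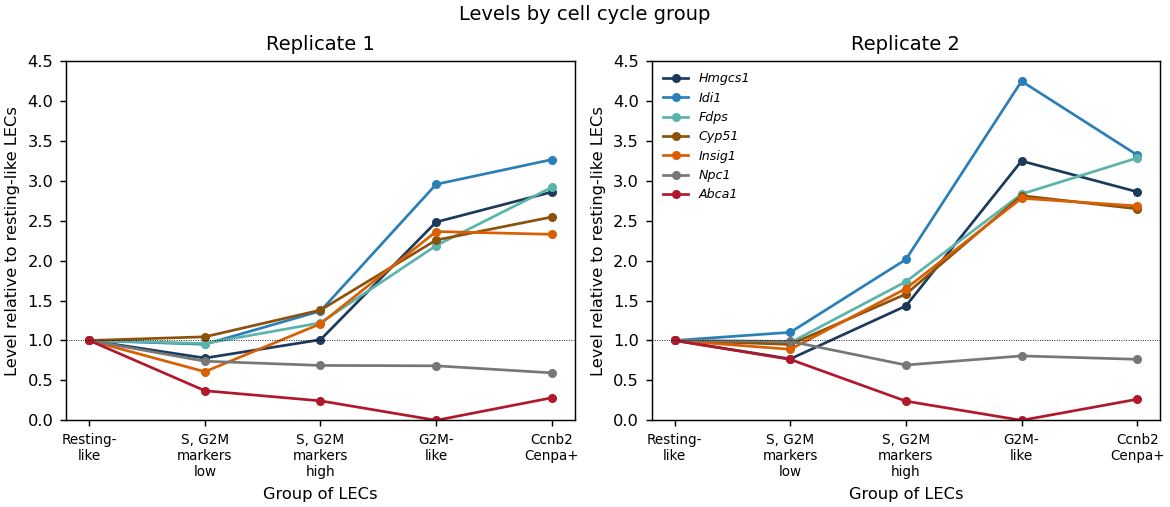
Level of 7 genes relative to resting-like LECs of the same pool (vertical axis, linear) in resting-like LECs, S phase-like LECs below and above the G2M threshold, G2M-like LECs and Ccnb2 and Cenpa-positive LECs (horizontal axis), with a panel per replicate. The enzymes and Insig1 lie near or below 1 in the S phase-like LECs with few G2M markers and at more than 2 times the resting-like level in G2M-like LECs, and Abca1 drops to 0 there.

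When LECs were ordered by the share of fiber markers and divided into 5 bins of equal size, 17 of the 19 enzymes stood higher in the last bin than in any other in both pools. Acat2 and Ebp did not, and both were lower in the last bin than in the first. Hmgcs1 had 73.3 and 68.6 CPM in the lowest bin, 78.1 and 70.0 CPM in the fourth and 174.8 and 168.1 CPM in the highest. Idi1 had 43.8 and 53.9, 44.0 and 42.9, and 111.3 and 116.1 CPM in the same bins. Mvd, Pmvk and Dhcr7 instead climbed at every step in both pools, Mvd from 9.70 and 9.96 over 20.0 and 16.8 to 36.6 and 28.5 CPM, and Pmvk from 44.1 and 46.9 over 60.3 and 69.3 to 89.1 and 91.1 CPM. Dhcr7 went from 7.64 and 7.10 over 11.0 and 11.7 to 14.7 and 13.6 CPM. Abca1 fell already between the first and the second bin, from 3.97 and 4.95 to 1.78 and 2.22 CPM. The bins hold all LECs, so the lower bins include the cycling ones, and the highest had the deepest barcodes, with medians of 9657 and 11585 UMIs against 5689 and 7357 in the fourth. The fiber markers are those of the late differentiation gate. The last bin therefore holds the Late Differentiating-like LECs and is not separate support for their levels. Sc5d led by little, with 21.7 CPM in the last bin and 21.3 CPM in the third in replicate 1. No test was made over bins.

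**Figure D4:**
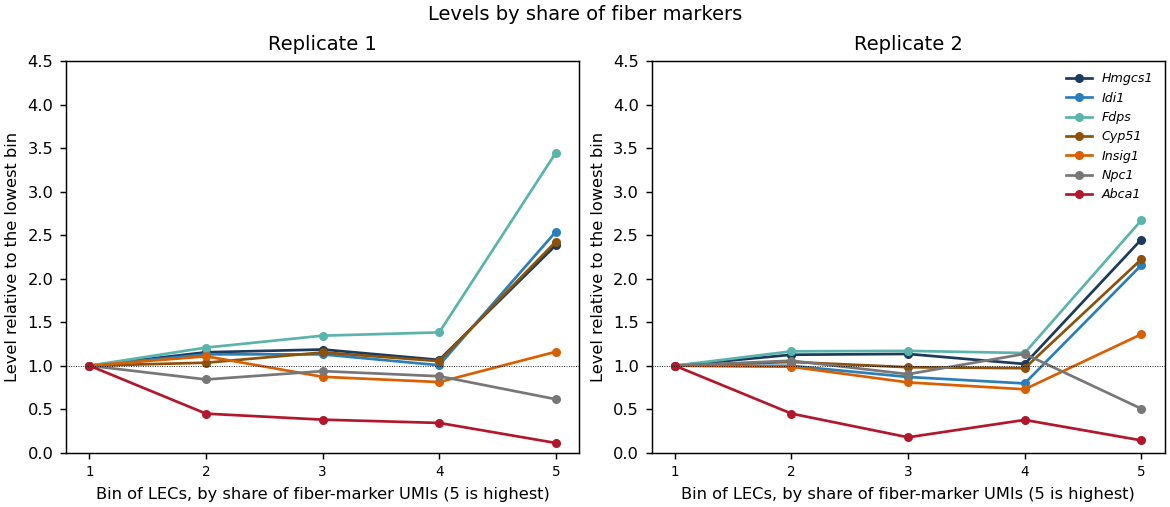
Level of 7 genes relative to the lowest of 5 bins of LECs in the same pool (vertical axis, linear) by bin of LECs ordered by their share of fiber-marker UMIs (horizontal axis), with a panel per replicate. Hmgcs1, Idi1 and Cyp51 stay near the starting level up to the fourth bin, all 3 and Fdps are more than 2 times it in the last, while Abca1 declines from the first step and Npc1 is lower in the last bin.

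Between cell types, the enzymes and the genes of storage and export were arranged in opposite ways. In endothelial-like barcodes 8 of the 16 enzymes that could be tested were lower than in LECs and none was higher, with a median of -0.73. Over the 27 genes in the fit 4 were higher and 9 lower, against 33.1% and 27.7% of all 9865 genes tested. Lss, Tm7sf2 and Hsd17b7 had too few UMIs to enter. With no upper limit on genes and UMIs all 30 entered and 17 were lower, against 35.7% of all genes. In mural-like barcodes 9 enzymes were lower and none higher (median -0.71), and 4 genes were higher and 11 lower, against 30.2% and 22.4%. In macrophage-like barcodes 6 enzymes were lower and none higher, and 5 genes were higher and 6 lower, against 16.7% and 15.3%. Of the 5 higher, Abcg1 had 0 and 33.9 CPM there, so its call rests on UMIs of replicate 2 alone. All 3 comparisons share the LECs, which here are all LEC groups summed. These LECs include the groups in which enzymes were higher than in resting-like LECs. Resting-like LECs, scaled among the cell cycle groups, had 19.3 and 16.2 CPM of Sqle and 39.3 and 31.9 CPM of Idi1. Endothelial-like barcodes had 20.6 and 16.0 CPM of Sqle and 23.3 and 16.0 CPM of Idi1. The part of the LEC mix in these differences was not tested. The vascular barcodes were shallower, with medians between 3029 and 4452 UMIs against 6250 and 8117 in LECs.

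**Figure D5:**
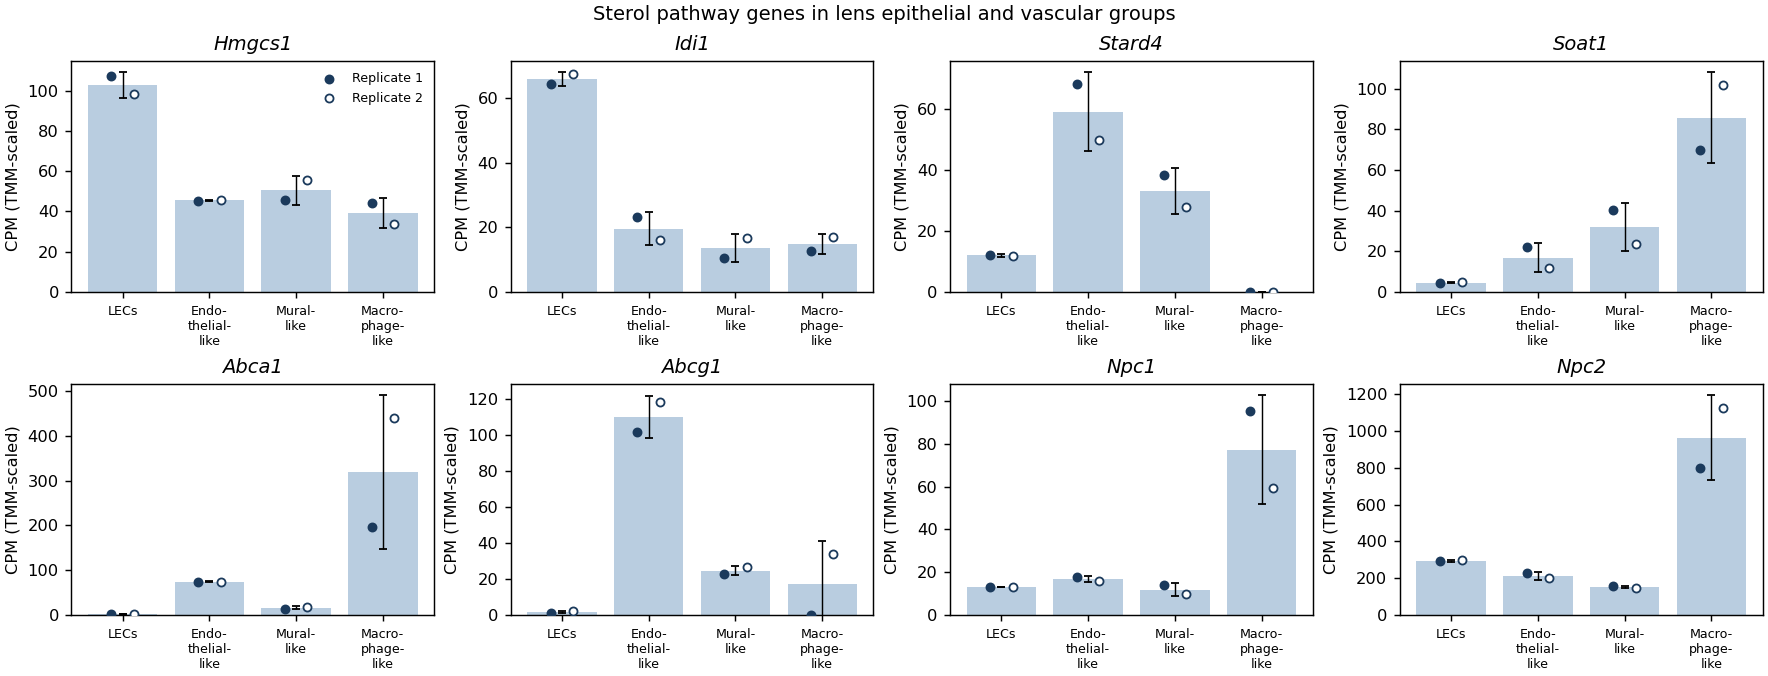
TMM-scaled CPM (vertical axis, linear from 0, with its own scale per gene) of 8 genes in LECs and in endothelial-like, mural-like and macrophage-like barcodes (horizontal axis). Bars are means of 2 pools, error bars are SD, and points are replicate 1 (filled) and replicate 2 (open). Hmgcs1 and Idi1 are highest in LECs, Stard4 and Abcg1 in endothelial-like and Soat1, Abca1, Npc1 and Npc2 in macrophage-like barcodes.

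Hmgcs1 stood at 107.5 and 98.4 CPM in LECs and at 45.2 and 45.8 CPM in endothelial-like barcodes (log2 -1.18 ± 0.16, adjusted p = 4.76e-08). Idi1 stood at 64.5 and 67.5 against 23.3 and 16.0 CPM (log2 -1.69 ± 0.20), and at 10.5 and 16.7 CPM in mural-like barcodes (log2 -2.24 ± 0.29). The other enzymes lower in endothelial-like barcodes were Fdft1 (-1.49 ± 0.25), Cyp51 (-1.27 ± 0.19), Fdps (-1.09 ± 0.17), Mvd (-0.81 ± 0.32), Sqle (-0.78 ± 0.24) and Msmo1 (-0.77 ± 0.20). DESeq2 did not call Mvd (adjusted p = 0.151) and put Sqle at the threshold (adjusted p = 0.05), and Mvd was lost without TMM factors (adjusted p = 0.062) and with gates on thinned barcodes (adjusted p = 0.0505) as well. In mural-like barcodes the others lower were Fdft1 (-1.70 ± 0.34), Cyp51 (-1.37 ± 0.24), Sqle (-1.27 ± 0.34), Mvd (-1.04 ± 0.44), Hmgcs1 (-1.01 ± 0.19), Sc5d (-0.96 ± 0.39), Msmo1 (-0.77 ± 0.25) and Fdps (-0.45 ± 0.18). Mvk, Pmvk, Ggps1, Ebp and Dhcr7 passed in neither, with values between -0.36 and 0.40, nor did Acat2 (-0.11 ± 0.22 and -0.54 ± 0.31) and Nsdhl (-0.70 ± 0.33 and -0.65 ± 0.42). Insig1 was lower in mural-like barcodes (44.0 and 43.0 CPM in LECs, 8.74 and 18.1 CPM there, log2 -1.64 ± 0.31) and had -0.36 ± 0.19 in endothelial-like barcodes. Srebf1, Srebf2, Scap and Insig2 passed in none of the 3 types.

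The exporters were the clearest vascular genes of the set. Abcg1, which passes cholesterol to HDL particles, had 1.13 and 2.03 CPM in LECs, 101.7 and 118.3 CPM in endothelial-like barcodes (log2 6.17 ± 0.25, adjusted p = 2.58e-22) and 22.7 and 26.5 CPM in mural-like barcodes (log2 3.97 ± 0.45). Abca1, which loads lipid-poor apolipoproteins, had 1.87 and 2.42 CPM in LECs, 73.1 and 74.6 CPM in endothelial-like barcodes (log2 5.14 ± 0.25) and 14.0 and 18.1 CPM in mural-like barcodes (log2 2.89 ± 0.49). Its highest level was in macrophage-like barcodes, at 196.8 and 440.7 CPM from 31 and 52 UMIs (log2 7.16 ± 0.33, adjusted p = 5.03e-20). The pools of LECs and of each vascular group did not overlap for these genes, except that replicate 1 held no UMI of Abcg1 in macrophage-like barcodes.

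Soat1 and Stard4 followed in part. Soat1 rose from 4.59 and 4.61 CPM in LECs to 21.9 and 11.7 CPM in endothelial-like (log2 1.92 ± 0.34), 40.2 and 23.7 CPM in mural-like (log2 2.76 ± 0.36) and 69.8 and 101.7 CPM in macrophage-like barcodes (log2 4.17 ± 0.50). Stard4 rose from 12.3 and 11.7 CPM to 68.5 and 50.1 CPM in endothelial-like (log2 2.31 ± 0.21, adjusted p = 5.66e-12) and 38.5 and 27.9 CPM in mural-like barcodes (log2 1.45 ± 0.31). Macrophage-like barcodes held no UMI of Stard4, Acat2 or Dhcr7. At a floor of 3 UMIs over the group, Acat2 was at least 2.46-fold lower there, and for Stard4 and Dhcr7 the LEC level was hardly above the floor. Npc1 was higher in macrophage-like barcodes (13.0 and 13.0 to 95.2 and 59.3 CPM, log2 2.61 ± 0.44), as was Npc2 (291.9 and 298.9 to 800.1 and 1127 CPM, log2 1.68 ± 0.15). Npc2 was lower in endothelial-like (-0.45 ± 0.12) and mural-like barcodes (-0.97 ± 0.15), and Npc1 passed in neither.

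Free RNA moves between droplets, and a limit on it can be read from lens crystallins in the vascular barcodes, with a size that depends on the crystallin. Cryaa reached 2.77 and 3.60% of its LEC level in endothelial-like, 3.41 and 3.22% in mural-like and 27.1 and 6.88% in macrophage-like barcodes. Cryab reached 2.86 and 2.40%, 7.90 and 6.14%, and 26.3 and 13.3% in the same groups. At the Cryaa shares the 30 genes would reach at most 8.10 and 10.8 CPM in endothelial-like barcodes, and all 30 were measured above their own share in both pools, with either crystallin. In mural-like barcodes 29 in replicate 1 and 30 in replicate 2 were above it with either crystallin. In macrophage-like barcodes 18 of the 30 in replicate 1 and 24 in replicate 2 were above it with Cryaa, and 19 and 23 with Cryab, and the part of free RNA in the other levels there was not tested. In resting-like LECs Cldn5 stood at 0.0468 and 0.0549% of its endothelial-like level, at which share Abca1 would reach 0.0342 and 0.0410 CPM, against 3.48 and 4.75 CPM measured.

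Genes around the set were counted in 6 further lists. Beside their counts stand 32.8% of all genes called higher and 32.8% lower in Late Differentiating-like LECs, and 33.1% and 27.7% in endothelial-like barcodes. With 4 to 10 genes tested in a list, the counts describe the genes and nothing particular to a list is read from them. Among 8 tested genes of fatty acid synthesis, 4 were higher and 2 lower in Late Differentiating-like LECs. Scd2, a stearoyl-CoA desaturase, went from 115.1 and 140.7 to 310.5 and 330.1 CPM (log2 1.33 ± 0.05), Fasn had 0.70 ± 0.08 and Fads1 0.33 ± 0.09. In endothelial-like barcodes 5 of 7 were lower, with Fasn at -2.30 ± 0.31, Elovl6 at -1.89 ± 0.25 and Scd2 at -0.55 ± 0.13. Of 6 lipoprotein receptor genes, 3 were higher and 1 lower in Late Differentiating-like LECs. Vldlr, a receptor of the LDL receptor family, went from 23.9 and 22.2 to 51.4 and 54.3 CPM (log2 1.19 ± 0.08), and Lrpap1 had 0.27 ± 0.05. In endothelial-like barcodes Vldlr had 0.665 and 0 CPM, against 31.9 and 30.9 CPM in LECs, and Lrp1 was lower (-4.29 ± 0.32). Lrp8, another receptor of that family, was higher, at 129.0 and 114.0 against 8.82 and 7.74 CPM (log2 3.87 ± 0.19).

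Of 9 genes of lysosomal and membrane sterol transfer, 4 were higher and none lower in Late Differentiating-like LECs, led by Gramd1a (1.29 ± 0.09) and Osbp (0.29 ± 0.08) among those named by the rule. In endothelial-like barcodes 4 of 7 were higher and 2 lower, with Lipa, the lysosomal acid lipase, at 1.39 ± 0.18, Stard3 at 1.23 ± 0.22 and Tmem97 at -1.69 ± 0.24. Of 7 genes of sterol sensing and SREBP processing, 1 was higher and 4 lower in Late Differentiating-like LECs. The proteases that cut SREBP moved apart, Mbtps2 upward (1.09 ± 0.10) and Mbtps1 downward (-0.80 ± 0.07), and Erlin2 had -0.35 ± 0.08. In endothelial-like barcodes 1 of 7 was higher and 3 lower, with Rnf145 at -1.58 ± 0.28, Mbtps1 at -0.70 ± 0.18 and Erlin2 at -0.51 ± 0.22. Of the 4 tested genes on the LXR side, 1 was higher and 3 lower in Late Differentiating-like LECs, Apoe with -2.30 ± 0.10 and Nr1h2, which encodes LXR beta, with -0.37 ± 0.08. In endothelial-like barcodes Rxra was higher (2.42 ± 0.31) and Apoe lower (-0.60 ± 0.18), with 2 of 5 higher and 1 lower in all. Of 10 genes of prenylation and other isoprenoid uses, 4 were higher and 2 lower in Late Differentiating-like LECs, with no change over 0.32 among those named, Fnta (0.32 ± 0.06), Nus1 (-0.22 ± 0.10) and Pggt1b (-0.22 ± 0.08). In endothelial-like barcodes Nus1 (2.12 ± 0.16) and Pggt1b (1.00 ± 0.15) were higher and Rabggtb lower (-0.57 ± 0.17), with 3 of 7 higher and 2 lower.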

How the data were processed

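Each sample was 1 pool of lens epithelium, sequenced with 10x Genomics 3′ v3.1 chemistry. The authors counted UMIs with Cell Ranger 6.1.1 on mm10, and the deposited values are raw whole-number counts per gene and barcode of 93839132 and 86033032 UMIs in 12314 and 9425 barcodes, with medians of 6307 and 8050. Whether strand was used in counting is not given in the sources used here. Exons of Hmgcs1, Ggps1, Fdft1, Lss, Cyp51, Srebf1 and Npc1 overlap genes on the other strand. The pools share 27 barcode sequences. Gene positions are from GENCODE vM21.

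Barcodes were kept between the 2nd and 97th percentiles of UMIs (949 to 20198) and genes (446 to 4261). Those over 15% mitochondrial UMIs were dropped, and per pool the top 8% by Scrublet score were removed as doublets (scanpy 1.11.5, Python 3.11.15). Groups needed, per 10000 UMIs, 30 of vascular markers, or 200 of LEC markers with under 10 of each vascular list, and among LECs 400 of late, 20 of early, 20 of S phase or 10 of G2M markers, or 2 UMIs of Ccnb2 and Cenpa. These limits were set on the spread of marker shares. Summed counts of each group and pool were fitted with edgeR 4.0.16 in R 4.3.3 (TMM, filterByExpr, robust quasi-likelihood fit, pool as block), in 1 fit of the 6 LEC groups and 1 of LECs and vascular types. P-values were adjusted by Benjamini-Hochberg over all genes but the gating markers. Same-numbered groups come from the same pool of pups, and their deviations correlated by 0.0729 to 0.348 (15 pairs, LEC groups) and 0.0130 to 0.109 (6 pairs, vascular fit). The edgeR and DESeq2 (1.42.0) scripts were also run on counts simulated from each gene's share over all LEC groups, with 1 spread for all genes. Changes were added to some genes in Late Differentiating-like LECs only. Those counts hold no other group or pool differences, and their outcome is not used here. Levels have counting error and pool spread only.

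The genes, lists and tests were chosen with earlier results of these data known. Every gene of the set is named, and of each further list up to 3 genes past the threshold with the largest change at 20 CPM or more. From the list of sterol sensing and SREBP processing, 1 gene was left out after its values were seen and is not reported here. Alternatives were DESeq2, no low-count filter, no replicate block, no doublet removal, no upper limits, no crystallins, thinning to 3000 UMIs for the gates, limits 1.5 times higher, no barcodes under 1% mitochondrial UMIs, each pool left out and, added after the data were seen, no TMM factors and barcodes of 4000 to 10000 UMIs only. The study's clusters, trajectories and signaling analyses were not repeated.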

Additional observations from a re-analysis of the deposited data

How the results depend on the processing

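Of 187 recomputed counts of genes called, 173 stayed within 1.5 times of the reported count. In brackets stands the share of all genes called in the same direction under the same setting. Without the replicate block, genes higher in S phase-like LECs numbered 7 (18.2%) and in Early Differentiating-like LECs 1 (12.4%). Genes lower in Ccnb2 and Cenpa-positive LECs then numbered 0 (3.68%), and no other count moved that far. With DESeq2, genes lower in S phase-like LECs numbered 7 (16.2%), in Ccnb2 and Cenpa-positive LECs 0 (4.34%) and in mural-like barcodes 7 (18%). With gate limits 1.5 times higher, 2 were lower in Ccnb2 and Cenpa-positive LECs (6.72%). With no upper limit on genes and UMIs, 17 of 30 were lower in endothelial-like barcodes (35.7%). Among barcodes of 4000 to 10000 UMIs, genes lower numbered 3 in G2M-like (14.8%) and 2 in Ccnb2 and Cenpa-positive LECs (6.99%). They numbered 3 in Late Differentiating-like LECs (20.3%) and 6 of the 20 tested in mural-like barcodes (21.5%). Between Late and Early Differentiating-like LECs 12 differed (19.6% in either direction). Without TMM factors, 8 were lower in Late Differentiating-like LECs (68.1%).

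Of 827 recomputed changes of called genes, 774 counted as unchanged and 40 kept direction but missed the threshold. The 774 include 58 values without replicate 1 and 61 without replicate 2, which had no test. Those counted as unchanged when they moved by less than the SD of the 2 pools, a limit that 2 values mostly meet. The others kept direction and call. Another 8 moved by more than the pool spread with 1 pool left out. Sign changed in 5, all in Late Differentiating-like against resting-like LECs. Without TMM factors these were Acat2 (-0.16), Ggps1 (-0.34) and Sc5d (-0.060). Among barcodes of 4000 to 10000 UMIs they were Ggps1 (-0.050) and Srebf1 (0.12). The cause was not tested. Leaving out a pool left no residual degrees of freedom, so it gave values with no test. The 58 macrophage-like barcodes, with at most 10 UMIs per pool for each enzyme, limit what could be detected there.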
